A study of Enchytraeus albidus with 15 samples.

Results

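Silver nitrate (AgNO3), a soluble silver salt, was compared at 200 against 100 mg/kg of soil in Enchytraeus albidus, an enchytraeid or potworm, one of the small segmented worms of soil and litter. The comparison takes 6 of the study's 15 arrays, 3 of each concentration. Probes were kept where either silver nitrate group had all 3 arrays well above background, which held for 432 of the 1035 probes on the array. The AgNO3 200 worms were exposed to 200 mg/kg, the AgNO3 100 worms to 100 mg/kg, and further groups of the study served for context: silver nanoparticles (Ag-NPs) at 200 and at 100 mg/kg, and a control in clean OECD soil, a standard artificial soil, with no silver. All groups were adult worms, 10 to a vessel of 25 g soil, exposed for 2 days under a cycle of 16 h light and 8 h dark at 20 °C, and each of the 5 groups had 3 biological replicates, each on 1 array. RNA was isolated per replicate from its pooled whole worms, so each value is an average over animals and over all their tissues, and fewer cells of a type cannot be told apart from less RNA per cell.

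Silver nitrate releases silver ions, which bind strongly to thiol groups of proteins and disturb the enzymes and ion transport that depend on them. In annelids, metal ions are known to be bound by metallothioneins, small cysteine-rich proteins, and silver ions are known to provoke oxidative stress. Whether the higher concentration moves transcript levels beyond those at the lower one is the question this comparison addresses. The probes carry clone and contig names without a gene name or description, so each is given by its name and no function is given to any of them.

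Levels are log2 intensities relative to a scaling value of each array, the 75th percentile over the 227 probes that were well above background on all 15 arrays. A difference of 1 on this scale is therefore a factor of 2, and differences are AgNO3 200 minus AgNO3 100. All 432 probes were well above background on the 3 AgNO3 100 arrays, and 249 of them were so on the 3 AgNO3 200 arrays as well. No probe entered through AgNO3 200 alone. The other 183 entered only through AgNO3 100: 119 were well above background on 2 AgNO3 200 arrays, 45 on 1 and 19 on none. Since those 183 were chosen by being bright at 100 mg/kg, their direction is partly set by the choice, and the results below turn on the 249 probes measured in both groups. Only 251 probes were well above background on AgNO3 200 replicate 3, so the split largely follows that array. Its negative control spots had an SD of 1.97 in unscaled signal, against 0.83 to 1.28 on the other AgNO3 arrays. Whether noise on that array set the split was not tested. Just inside the limit, which asked for a share of at least 0.5 of a probe's spots on every array of a group, lay Contig28 and P2_B11_T7_1328963 with 50% of spots on their lowest array, at means of −6.52 and −6.63 in AgNO3 200 and −6.73 and −6.43 in AgNO3 100. Just outside lay P3_B6_T7_1329690 with 46.7%, at a mean of −7.07 in AgNO3 200 and −5.30 in AgNO3 100.

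The arrays differed in how much they detected. The AgNO3 200 arrays had 477, 388 and 251 probes well above background, against 455, 589 and 466 for AgNO3 100. The means were 372 ± 114 in AgNO3 200 and 503 ± 74.4 in AgNO3 100 (SD, n = 3 each), and the groups overlapped (two-sided exact permutation test, p = 0.3, where the smallest p that 3 against 3 arrays allow is 0.1). Array brightness, the 75th percentile of the unscaled signal over all spots, was 21.9, 23.1 and 20.9 in AgNO3 200, against 19.7, 54.3 and 21.2 in AgNO3 100 (exact permutation p = 0.9). The array of AgNO3 100 replicate 2 was thus the brightest of all 15, and the other AgNO3 100 arrays lay near the AgNO3 200 ones. The arrays came from 3 slides. Replicates 1, 2 and 3 of AgNO3 200 were on slides 1, 2 and 3, while AgNO3 100 replicate 1 was on slide 1, replicates 2 and 3 were on slide 2, and no AgNO3 100 array was on slide 3, which was scanned on another day.

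Over the 249 probes measured in both groups, the AgNO3 200 arrays were closer to each other than the AgNO3 100 arrays were, on the scaling used here. The median absolute difference between 2 arrays was 0.25 to 0.42 among AgNO3 200 arrays and 0.39 to 0.88 among AgNO3 100 arrays. AgNO3 100 replicate 3 was nearer to the AgNO3 200 arrays, at 0.27 to 0.33, than to the other arrays of its own group, at 0.39 and 0.88. AgNO3 100 replicate 2 lay at 0.85 to 1.13 from the AgNO3 200 arrays. Its nearest arrays of all were Ag-NPs 100 replicate 1, at 0.35, and control replicate 1, at 0.40, while control replicates 2 and 3 lay at 0.62 and 0.95. AgNO3 100 replicate 2, control replicate 1 and Ag-NPs 100 replicate 1 were also the brightest arrays, at 54.3, 45.3 and 44.5. AgNO3 100 replicate 1 lay between replicates 2 and 3 of its group, at 0.38 to 0.54 from the AgNO3 200 arrays. The 3 arrays of AgNO3 100 therefore differed widely in how near they lay to the higher concentration, and each result below is given with that spread. The SD of a probe between replicates had a median of 0.29 in AgNO3 200 and 0.49 in AgNO3 100 over the 249 probes, and it was smaller in AgNO3 200 for 169 of them. The same median was 0.40 in Ag-NPs 200, 0.57 in Ag-NPs 100 and 0.52 in control, so AgNO3 200 had the lowest of the 5 groups on this scaling. Over the 432 probes it was 0.33 in AgNO3 200 and 0.49 in AgNO3 100. Scaled to the 75th percentile of all spots, these became 0.46 and 0.49, so most of that contrast depended on the scaling. Spots of 1 probe within an array had a median SD of 0.16 to 0.27 on the 6 AgNO3 arrays, well below the spread between AgNO3 100 arrays.

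**Figure D1:**
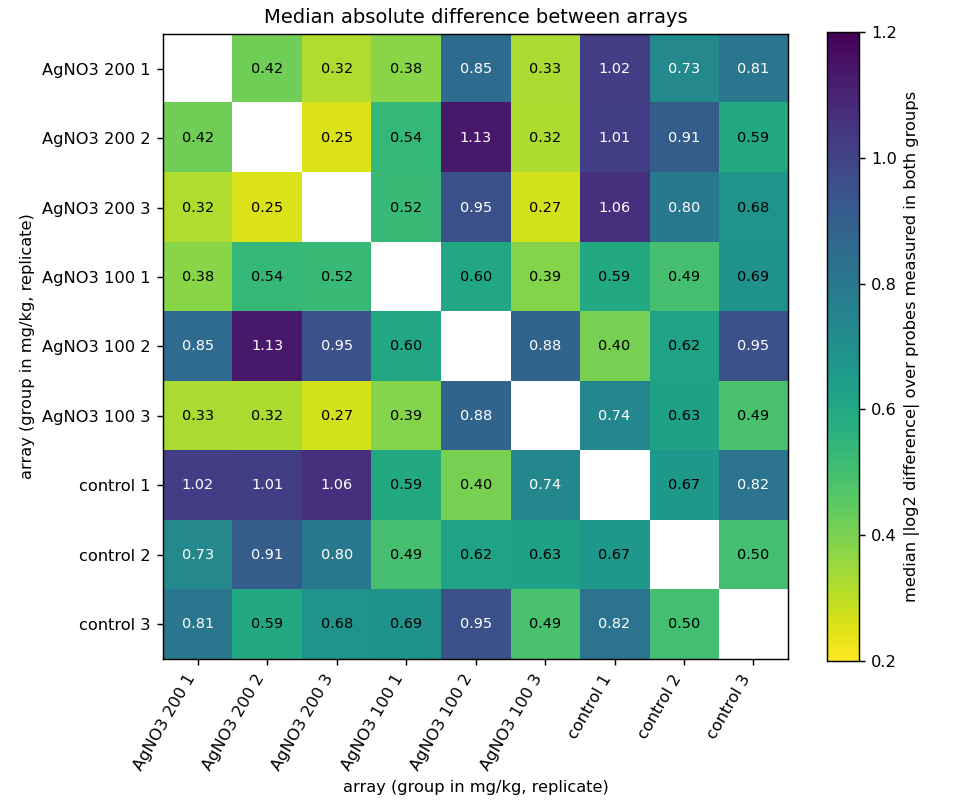
Median absolute log2 difference between each pair of the AgNO3 200, AgNO3 100 and control arrays over the 249 probes measured in both AgNO3 groups, with array names on both axes and the value in each cell. AgNO3 100 replicate 3 is at 0.27 to 0.33 from the AgNO3 200 arrays, while AgNO3 100 replicate 2 is at 0.85 to 1.13 from them.

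No probe passed the test between the concentrations. In limma's fit over all 15 arrays with Benjamini-Hochberg adjustment over the 446 tested probes, 0 of them (0%) had an adjusted p below 0.05, and the smallest adjusted p was 0.174. At an unadjusted p below 0.05 there were 87 probes, 19.5% of those tested, with 16 (3.59%) higher and 71 (15.9%) lower in AgNO3 200. Of the 432 probes, 86 were among them, 16 higher and 70 lower, and of the 249 measured in both groups 44 were, 16 higher and 28 lower. The remaining 42, all lower, belonged to the 183 probes that entered only through AgNO3 100. Among the 249, 136 differences were above 0 and 113 below, with a median of 0.10, against a median of −0.08 over all 446. Of these 249 probes, 11 were saturated on all 6 arrays and had no order, and without the 13 saturated on any array 123 of 236 were above 0, with a median of 0.05.

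How large a difference the data leave possible is given by the intervals, which are not adjusted for the number of probes. The standard error of a difference had a median of 0.43 over the 249 probes. The 95% confidence interval of 183 of the 249 probes (73.5%) lay within a factor of 4 on both sides, and that of 46 (18.5%) within a factor of 2. For most probes a change beyond a factor of 2 was thus not excluded with 3 arrays a group, and no difference of any size passed the adjusted test. The fitted difference itself was beyond a factor of 2 for 52 of the 249, 23 higher and 29 lower in AgNO3 200.

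**Figure D2:**
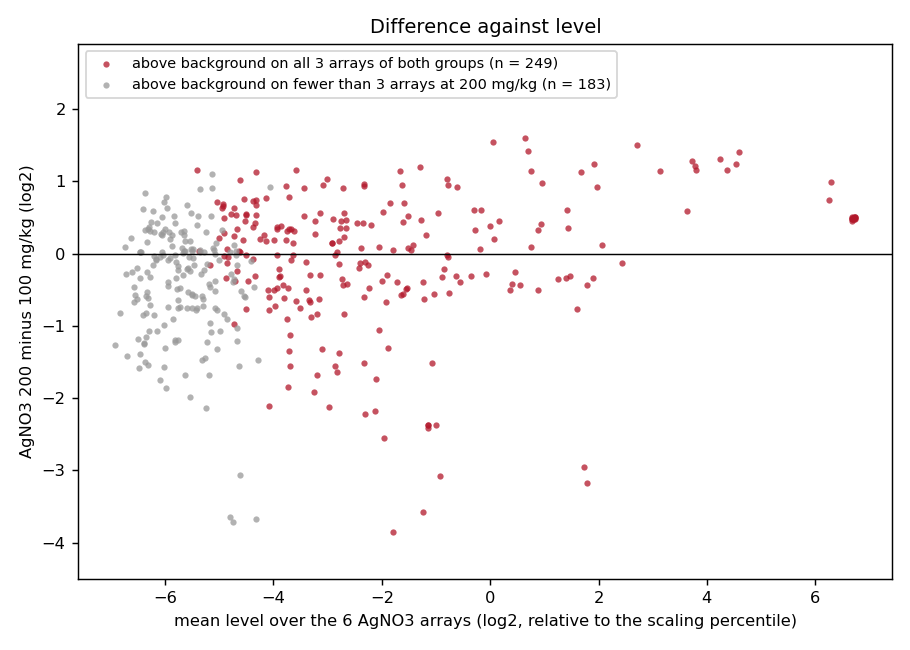
Difference in log2 level, AgNO3 200 minus AgNO3 100 (vertical axis), against the mean log2 level over the 6 AgNO3 arrays (horizontal axis) for the 432 probes, 249 of them measured in both groups. The largest differences are below 0 and reach −3.85, none exceeds 1.60 above 0, and the 11 probes saturated on all 6 arrays form the tight cluster at the far right.

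Groups that do not overlap give another view. Among the 249 probes, all 3 AgNO3 200 arrays lay above all 3 AgNO3 100 arrays for 30, and below them for 42. Over the 446 tested probes such separation was found for 31 above (6.95%) and 92 below (20.6%). Of the 432, 31 were above and 89 below, and 47 of those 89 were probes that entered only through AgNO3 100.

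The 10 probes with the smallest p among the 30 that lay above had differences of 1.14 to 1.60, or 2.21- to 3.02-fold, with standard errors of 0.40 to 0.52. None passed the adjusted test in limma (adjusted p 0.174 to 0.175). Ealb_Met_P3_H11_T7_2175244 had levels of 0.83, 0.82 and 0.83 in AgNO3 200, against −1.09, −1.21 and 0.15 in AgNO3 100. Its AgNO3 200 arrays agreed to 0.01 (SD), and the AgNO3 100 array nearest to them was replicate 3. The difference was 1.55 ± 0.46 (SE), 2.92-fold, with an adjusted p of 0.174 in limma.

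Ealb_Met_P8_F8_SP6_2091134 had levels of 3.50, 3.48 and 3.40 in AgNO3 200, against 1.59, 1.44 and 2.83 in AgNO3 100, a difference of 1.51 ± 0.48. Ealb_Pest_P6_D6_SP6_2092072 had 1.51, 1.35 and 1.48 in AgNO3 200, against −0.66, −0.72 and 0.92 in AgNO3 100, which gave 1.60 ± 0.52, the largest difference of the 10. In both probes replicates 1 and 2 of AgNO3 100 lay close together and replicate 3 stood nearer to AgNO3 200. Contig7 had 5.40, 5.03 and 5.43 in AgNO3 200, against 3.68, 3.26 and 4.70 in AgNO3 100, a difference of 1.41 ± 0.46. Ealb_Met_P10_C8_T7_2175073 had 5.19, 5.08 and 5.21 in AgNO3 200, against 3.62, 3.39 and 4.77 in AgNO3 100, a difference of 1.23 ± 0.40. P5_D12_T7_1330274 had 4.45, 4.43 and 4.23 in AgNO3 200, against 2.69, 2.50 and 4.06 in AgNO3 100, a difference of 1.29 ± 0.44. These last 3 probes are bright ones, and in each AgNO3 100 replicate 3 lay just below the lowest AgNO3 200 array. The other 4, which are Ealb_Met_P5_A1_SP6_2090131, Contig70, Contig79 and Ealb_Met_P7_H6_SP6_2090643, had differences of 1.14 to 1.41 with AgNO3 100 replicate 3 as the highest of its group in each.

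The 10 lower probes had larger differences and larger errors, from −3.85 to −1.35 with standard errors of 0.47 to 1.36, and they too did not pass in limma (adjusted p 0.174 to 0.175). From the values of the authors' deposited table, Contig89 and Ealb_Pest_P3_E11_T7_2175136 did pass, with differences of −2.80 and −2.74 (limma adjusted p = 0.0301 for each). Differences in that table were shifted downward as a whole, with a median of −0.55 over the tested probes, which favours passing in the lower direction. P4_E12_T7_1329790 had levels of −4.70, −4.44 and −4.29 in AgNO3 200, against −3.04, −1.98 and −3.75 in AgNO3 100, a difference of −1.55 ± 0.47. Ealb_Met_P9_H5_SP6_2090725 had −4.80, −3.98 and −3.36 in AgNO3 200, against −2.06, −1.20 and −2.51 in AgNO3 100, a difference of −2.12 ± 0.65. In each of these, AgNO3 100 replicate 2, the brightest array, gave the highest level and replicate 3 the lowest of its group.

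Ealb_Met_P3_F6_SP6_2090372 had −2.41, −1.71 and −1.37 in AgNO3 200, against −0.24, 0.00 and −0.69 in AgNO3 100, a difference of −1.51 ± 0.48. Ealb_Met_P6_B12_T7_2175285 had −4.40, −4.39 and −4.40 in AgNO3 200, against −3.02, −1.96 and −4.15 in AgNO3 100, a difference of −1.35 ± 0.50. The AgNO3 200 arrays thus agreed closely for the second of these and spread over about 1 unit for the first. Contig89 had −1.88, 0.95 and 1.53 in AgNO3 200, against 3.51, 4.95 and 1.66 in AgNO3 100, a difference of −3.17 ± 1.02. Here the gap between the groups, 1.53 against 1.66, was small beside the spread within either group. AgNO3 200 replicate 1 was the lowest array and AgNO3 100 replicate 2 the highest. The other 5, which are Ealb_Met_P7_D1_SP6_2090603, Ealb_Pest_P10_C11_SP6_2092344, Ealb_Met_P1_G10_SP6_2090218, Ealb_Pest_P3_E11_T7_2175136 and Ealb_Met_P5_H12_SP6_2090509, had differences of −3.85 to −1.55.

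**Figure D3:**
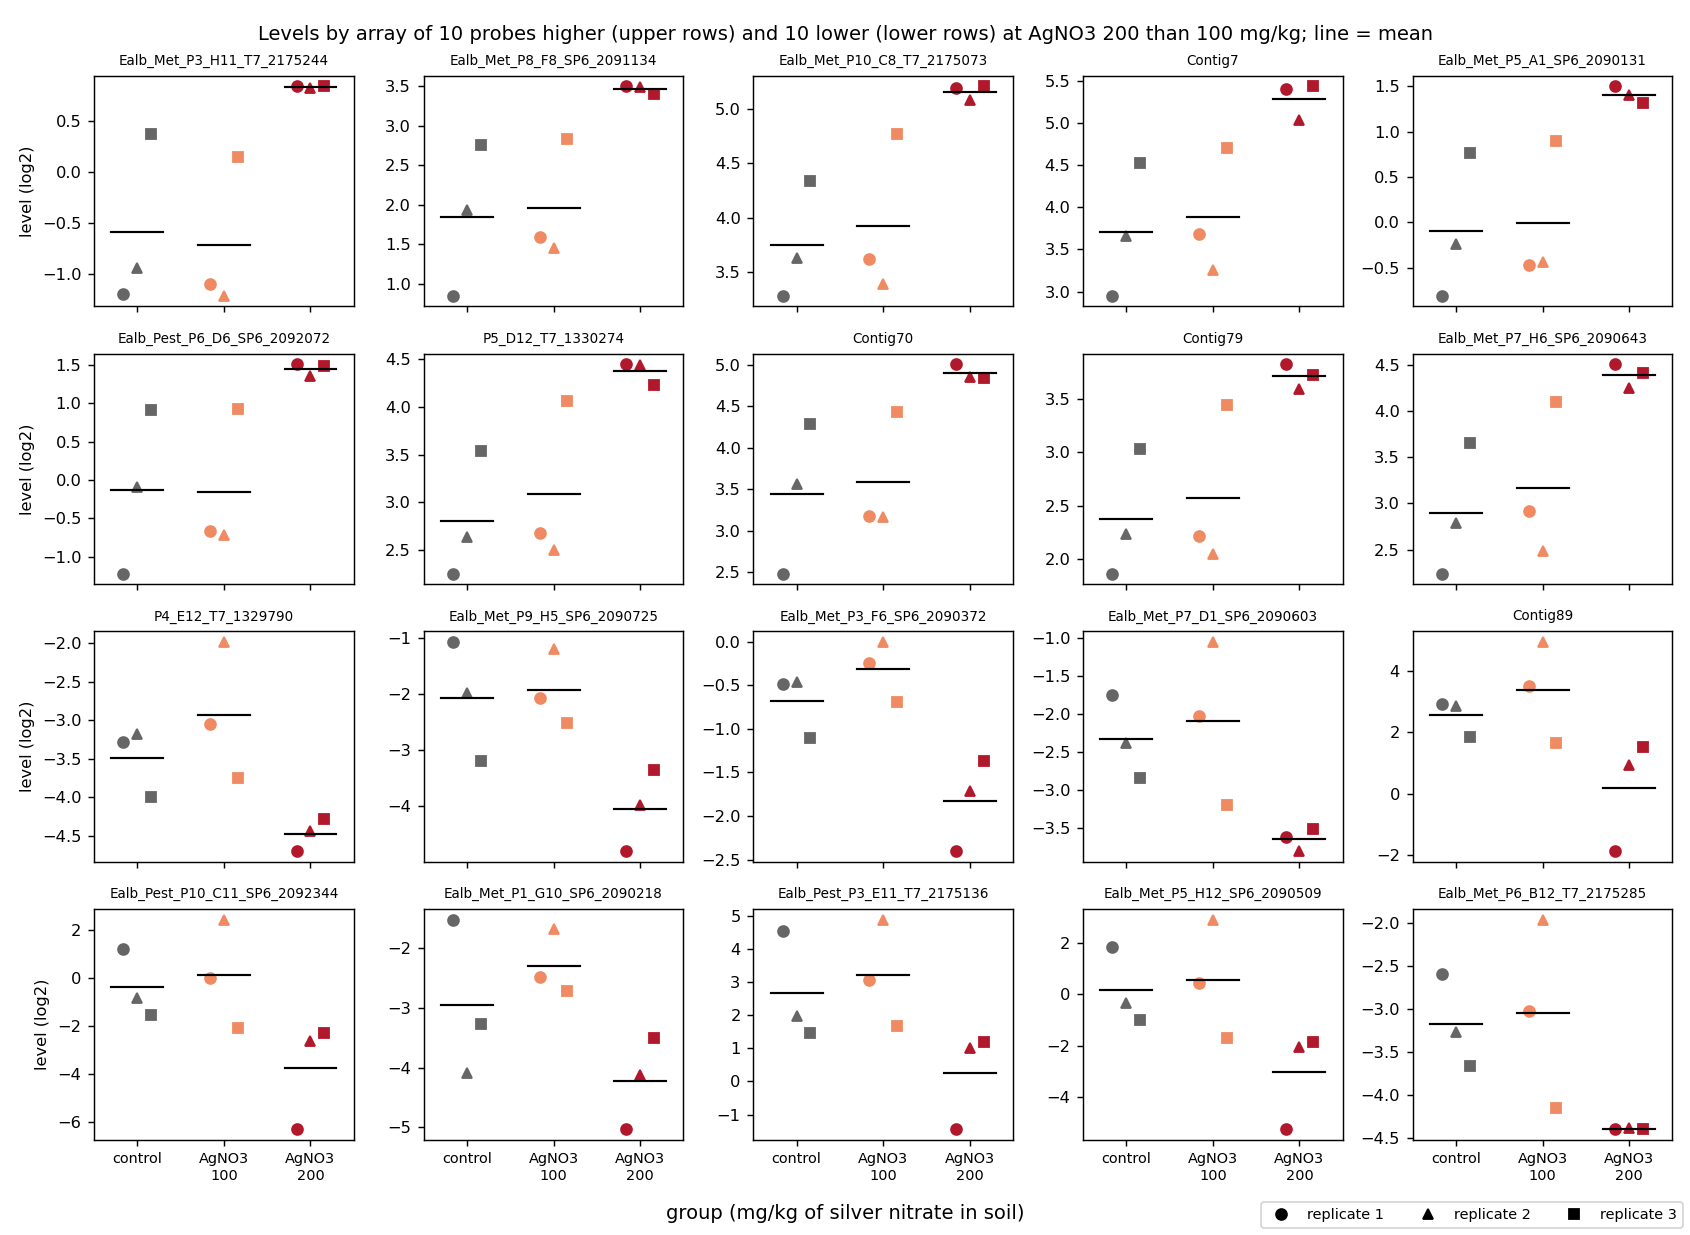
Log2 level on each array (vertical axes, each panel on its own scale) in control, AgNO3 100 and AgNO3 200 for the 10 higher probes (upper 2 rows) and the 10 lower probes (lower 2 rows), with points for replicates 1, 2 and 3 and a line at the mean. AgNO3 100 replicate 3 is the AgNO3 100 point nearest to AgNO3 200 in all 10 higher probes, and control replicate 3 is the highest control point there.

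The probes with the widest differences had the same 2 arrays at their extremes. Of the 432 probes, 19 were over 4-fold lower in AgNO3 200, by 4.33- to 14.4-fold, and 0 were over 4-fold higher. These 19 were picked after their values were seen and are described without a test. Of them, 14 were measured in both groups, and 11 had groups that did not overlap. In all 19, AgNO3 200 replicate 1 was the lowest of the 6 AgNO3 arrays and AgNO3 100 replicate 2 the highest. Their median levels were −5.23, −2.13 and −2.08 in AgNO3 200, against −0.47, 0.53 and −2.12 in AgNO3 100. AgNO3 200 replicates 2 and 3 and AgNO3 100 replicate 3 thus had nearly the same median. Among the other groups, their medians lay close together in Ag-NPs 200, at −1.54, −1.29 and −1.18. They lay far apart in Ag-NPs 100, at 1.30, −0.29 and −2.16, and in control, at 0.32, −1.36 and −2.75.

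Some of these 19 had almost the same level on every array. Contig161, Ealb_Pest_P5_H12_T7_2175165, Ealb_Pest_P4_C12_T7_2175150 and Ealb_Pest_P4_G11_T7_2175146 differed from each other by no more than 0.30 on any of the 15 arrays. Contig161 stood at −4.75, −1.02 and −0.78 in AgNO3 200, against 0.38, 1.43 and −1.22 in AgNO3 100, and its groups overlapped. Its difference was −2.38 ± 1.03 with an adjusted p of 0.22 in limma. Whether the 4 probes share a transcript was not tested.

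For 19 probes no AgNO3 200 array was well above background, so only a bound on the fold can be given. The bound set the AgNO3 100 mean against an AgNO3 200 mean in which each array contributed either the probe's signal or, where that was dimmer, the dimmest signal that still counted as above background. The bound concerns the fold between the means and leaves out the error between arrays. It exceeded 1-fold for 13 of the 19, and the other 6 have no fold. Ealb_Met_P9_B10_SP6_2090756 was at least 2.80-fold lower in AgNO3 200, with measured means of −6.54 in AgNO3 200 and −4.55 in AgNO3 100 (limma adjusted p = 0.174). The bound was 1.28-fold for P2_B12_SP6_1371407, 1.21-fold for Ealb_Pest_P6_D2_SP6_2092042 and 1.18-fold for Ealb_Met_P5_F9_T7_2175270. No probe was above background on all AgNO3 200 arrays and on no AgNO3 100 array. At the bright end, Ealb_Met_P5_E9_SP6_2090482, Ealb_Met_P7_B8_SP6_2090652 and Ealb_Met_P4_D3_T7_2175250 had the highest mean levels of the 432, but all were saturated on the 6 arrays, so they have no order between the concentrations.

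Over the 30 separated higher probes, the AgNO3 100 arrays differed in how far they lay below the AgNO3 200 arrays. The median level was −0.58, −0.29 and −0.59 in AgNO3 200, against −1.28, −1.73 and −0.70 in AgNO3 100. AgNO3 100 replicate 3 was the highest of its group for 23 of the 30, and replicate 2 the lowest for 25. The same set varied between arrays of groups that were treated alike, with medians of −1.28, −0.77 and −1.14 in Ag-NPs 200, −1.68, −1.11 and −0.96 in Ag-NPs 100, and −1.86, −1.19 and −0.60 in control. Control replicate 3 was the highest control array for 27 of the 30 and Ag-NPs 100 replicate 1 the lowest of its group for 29. Array brightness went with these levels in some groups and not in others. It was 18.7 for control replicate 3 against 45.3 and 33.6 for control replicates 1 and 2, and 44.5 for Ag-NPs 100 replicate 1 against 18.6 and 17.3 for the others of that group, so the brighter arrays had the lower medians there. In Ag-NPs 200 the dimmest array, replicate 1 at 16.9, had the lowest median, with 24.2 and 31.1 for replicates 2 and 3. In AgNO3 100 the brightest array, replicate 2 at 54.3, had the lowest median, −1.73. Replicates 1 and 3 of that group had similar brightness, 19.7 and 21.2, and medians of −1.28 and −0.70. With log2 brightness as a covariate in the fit, 0 of 446 probes passed between the concentrations, and 81 had an unadjusted p below 0.05, 17 of them higher.

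The 42 separated lower probes had medians of −3.06, −2.79 and −2.71 in AgNO3 200, against −1.79, −1.67 and −2.34 in AgNO3 100. Here AgNO3 100 replicate 2 was the highest of its group for 33 and replicate 3 the lowest for 32. Their medians were −2.07, −1.94 and −1.52 in Ag-NPs 200, −1.90, −2.35 and −1.99 in Ag-NPs 100, and −1.48, −1.58 and −1.83 in control. All 3 AgNO3 200 medians were below those of every other array. The choice of the set fixed this for the AgNO3 100 arrays and favoured it for the others, since the probes were picked for low AgNO3 200 arrays.

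**Figure D4:**
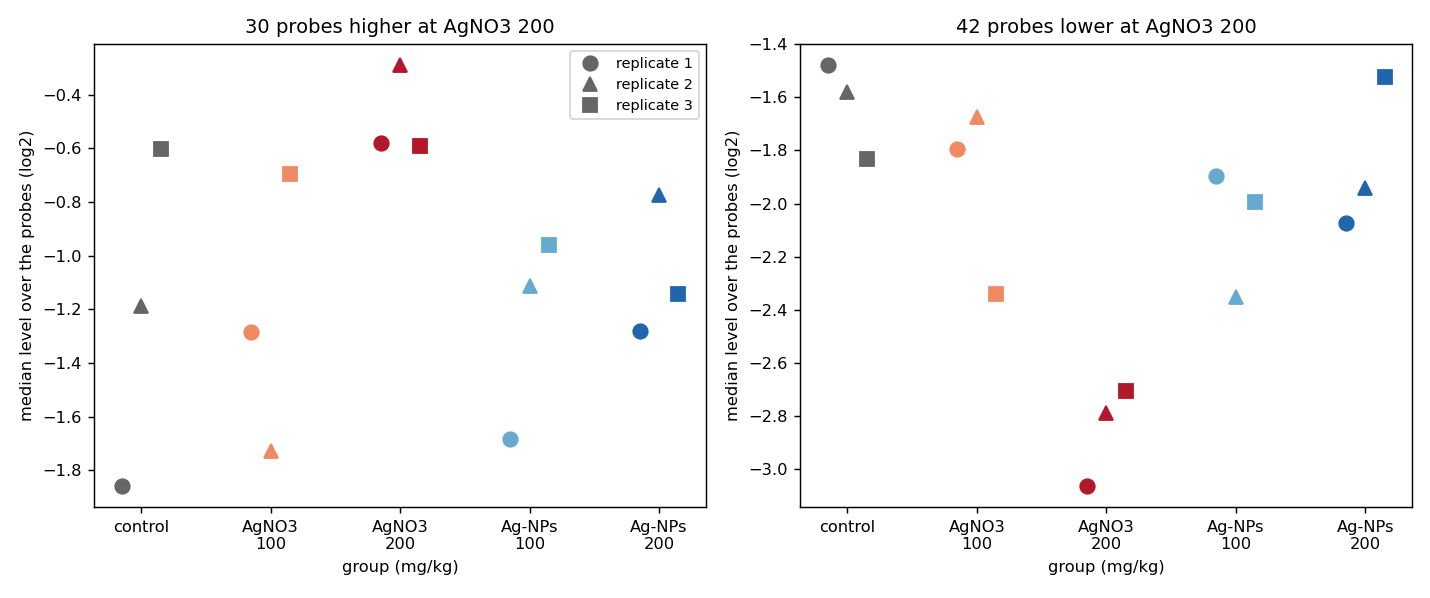
Median log2 level (vertical axis) on each of the 15 arrays, by group, over the 30 probes whose AgNO3 200 arrays all lay above the AgNO3 100 arrays (left) and the 42 whose arrays all lay below (right). Control replicate 3 and AgNO3 100 replicate 3 lie at −0.60 and −0.70 in the left panel, next to the AgNO3 200 arrays, and in the right panel the AgNO3 200 arrays lie at −3.06 to −2.71, below all others.

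Set against clean soil, the 2 concentrations had different counts, in comparisons that share the control arrays with each other and the AgNO3 arrays with the comparison above. In limma, 36 of the 446 tested probes (8.07%) passed for AgNO3 200 minus control, of which 35 were among the 432, 19 that rose and 16 that fell. Over all tested probes 4.26% rose and 3.81% fell. Scaled to the 75th percentile of all spots, 48 passed, 35 higher and 13 lower, so the near-even split depended on the scaling. For AgNO3 100 minus control, 2 probes (0.448%) passed, P5_D7_T7_1329838 and P2_B1_T7_1328894, and both fell. With that other scaling 13 passed, 11 of them higher and 2 lower. Neither count is a test between the concentrations, for which the difference itself gave 0. P5_D7_T7_1329838 had a difference from control of −2.44 in AgNO3 200 and −3.23 in AgNO3 100. P2_B1_T7_1328894 had −1.89 in AgNO3 200 and −2.28 in AgNO3 100. Both were thus low at either concentration, with differences between the concentrations of 0.78 and 0.39 that did not pass.

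The 10 named higher probes were 1.34 to 1.62 above control in AgNO3 200 and between −0.13 and 0.27 from control in AgNO3 100. Of these, P5_D12_T7_1330274, Ealb_Met_P10_C8_T7_2175073 and Contig7 rose against control in AgNO3 200, by 1.56, 1.41 and 1.58 (limma adjusted p 0.044, 0.045 and 0.048). The 10 named lower probes differed from control by −3.35 to −0.99 in AgNO3 200 and by 0.13 to 0.82 in AgNO3 100, and none of these differences passed. Both sets of 10 were picked by the position of their AgNO3 200 arrays, which favours a difference from control in the same direction. The values against control, those that passed included, are therefore no separate support for a difference between the concentrations.

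The nanoparticle groups give the same step of concentration on other arrays. For Ag-NPs 200 minus Ag-NPs 100, limma called 0 of 446 probes (0%), and 25 (5.61%) were below an unadjusted p of 0.05, 9 higher (2.02%) and 16 lower (3.59%). Of the 432, 7 were higher and 16 lower at that level. This balance turned with the scaling: with the 75th percentile of all spots, 21 were higher and 10 lower of 31. All 3 Ag-NPs 100 arrays were on slide 3, with 1 Ag-NPs 200 array, while the other 2 Ag-NPs 200 arrays were on slide 1. Of the 30 separated higher probes, 18 had a nanoparticle step above 0, with a median of 0.27, and of the 42 separated lower probes 31 had a step above 0, with a median of 0.11. Over all 249 the median step was 0.05, and 136 were above 0. For all 10 named higher probes the nanoparticle step was above 0, at 0.26 to 0.73, and none was below an unadjusted p of 0.05. Across the 249 probes the steps of both forms had a Pearson's r of 0.27 and the same sign for 109, as a description over probes that share arrays and scaling. Of the 19 probes over 4-fold lower with silver nitrate, 16 had a nanoparticle step below 0, and the median step of the 19 was −1.09. In all 19 the arrays of Ag-NPs 200 and Ag-NPs 100 overlapped, and the smallest unadjusted p of the step in limma was 0.06. Ag-NPs 100 replicate 3 had a lower median over the 19, at −2.16, than any Ag-NPs 200 array. The 4 near-equal probes are among the 19, so the count is not of separate observations.

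Whether the step differed between the forms was tested by the interaction. In limma 0 of 446 (0%) passed. At an unadjusted p below 0.05 there were 37 (8.3%), all among the 432, with 7 positive (1.57%) and 30 negative (6.73%). With slide as a block 0 passed and the split was 21 positive and 18 negative of 39, so the mostly negative direction was not kept. The smallest adjusted p, 0.102, belonged to Ealb_Met_P8_C1_SP6_2090691, which was singled out after its values were seen. It had −3.80, −3.74 and −3.71 in AgNO3 200, against −4.12, −4.43 and −5.01 in AgNO3 100. It had −5.52, −6.83 and −6.80 in Ag-NPs 200, against −4.73, −4.54 and −3.68 in Ag-NPs 100. The levels of −6.83 and −6.80 are dim. Probes with no AgNO3 200 array well above background had AgNO3 200 means of −7.55 to −6.46. Whether this probe was above background on those Ag-NPs 200 arrays is not given, so its nanoparticle step and interaction may be limited by the floor. The arrays of neither form overlapped, in opposite directions, with steps of 0.77 for silver nitrate and −2.07 for nanoparticles and an interaction of 2.84 ± 0.58. Among the named higher and lower probes, Ealb_Met_P3_F6_SP6_2090372 had the smallest interaction p, with steps of −1.51 for silver nitrate and 1.02 for nanoparticles and an interaction of −2.53 ± 0.67 (limma adjusted p = 0.309).

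**Figure D5:**
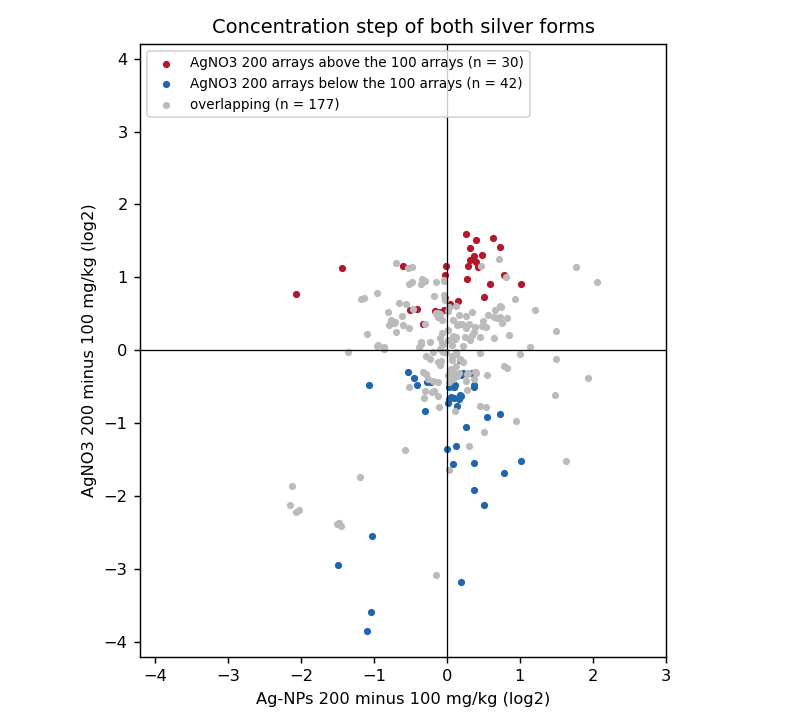
Log2 difference of 200 minus 100 mg/kg with silver nitrate (vertical axis) against the same difference with nanoparticles (horizontal axis) for the 249 probes, coloured by whether the AgNO3 200 arrays lay above (30), below (42) or among the AgNO3 100 arrays (177). Points fall in all 4 quadrants, and the 42 lower probes include 31 with a nanoparticle difference above 0.

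The names of the probes fall into 4 kinds by their first letters, which the files do not explain. Of 68 probes named Ealb_Pest, 22 were higher in AgNO3 200 and the median difference was −0.32. For 165 named Ealb_Met it was 83 and 0.02, for 86 named Contig 44 and 0.01, and for 113 with other names 50 and −0.15, against 199 of 432 and −0.07 over all kinds. Among the probes measured in both groups, 13 of 34 Ealb_Pest probes were higher, with a median of −0.33, and 58 of 96 Ealb_Met probes, with a median of 0.23. These are descriptions, and the kinds were not tested against each other. No clone had more than 1 probe, so the reads of both ends of a clone could not be set side by side.

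The count of 0 depended on AgNO3 100 replicate 3. Without that array, 22 of 446 probes (4.93%) passed in limma, 9 that were higher (2.02%) and 13 lower (2.91%), with adjusted p of 0.0473 to 0.049. Of the 22, 21 were among the 432 and 13 among the 24 named with a difference, with Ealb_Met_P7_D1_SP6_2090603 at −2.10 ± 0.46 and Ealb_Met_P10_C8_T7_2175073 at 1.65 ± 0.38. Leaving out any other single array gave 0. Nothing in the labels sets that replicate apart. Within slide 1, which holds 1 array of each concentration, 4 probes (0.897%) were higher and 28 (6.28%) lower, with the spread taken from the 2 Ag-NPs 200 arrays of that slide. Within slide 2, which holds 1 AgNO3 200 and 2 AgNO3 100 arrays, 0 passed and 13 had an unadjusted p below 0.05. With slide as a block 0 passed, 64 had an unadjusted p below 0.05 and 20 of them were higher.

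The split between higher and lower depended on the scaling. Of the probes with an unadjusted p below 0.05, 16 of 87 were higher here, against 33 of 71 when arrays were scaled to the median of the 227 probes, 18 of 44 with the median of all spots, 5 of 42 with spike-in spots and 1 of 116 in the authors' deposited table. Over all tested probes the median difference was −0.08 here, and 0.19, −0.21, −0.62 and −0.55 under those scalings. The 4 named higher probes Ealb_Met_P10_C8_T7_2175073, Contig7, Contig70 and Ealb_Met_P7_H6_SP6_2090643 had differences of −0.043 to −0.013 from the values of the authors' deposited table. Ealb_Met_P8_F8_SP6_2091134 and P5_D12_T7_1330274 had 0.08 and 2e-05 there. Ealb_Met_P3_H11_T7_2175244, Ealb_Met_P5_A1_SP6_2090131 and Ealb_Pest_P6_D6_SP6_2092072 had 1.15, 1.53 and 1.81. Contig79 reached 0.0007 at its lowest over the alternatives. With normexp and quantile normalization, Ealb_Met_P10_C8_T7_2175073, Contig7 and P5_D12_T7_1330274 fell to 0.08, 0.31 and 0.57. The probes at 1.15, 1.53 and 1.81 had 1.41, 1.39 and 1.56 with it. Every named lower probe stayed below 0 under all the alternatives tried.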

How the data were processed

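Per the file headers, the deposited scanner files hold spot intensity on a linear scale from Agilent Feature Extraction 10.5.1.1, background-subtracted within the array and not scaled between arrays. The authors' deposited table holds log2 values, with the same median (5.53) and 75th percentile (7.86) in every array. No header or label records its normalization. Part of each array's values is empty there: 27.3, 32.6 and 44.3% in AgNO3 200, against 28.1, 22.5 and 24.8% in AgNO3 100. A probe's value from that table averaged its filled spots only, and the effect of the empty ones was not tested. Control and outlier spots were left out of 15744 spots per array, saturated spots were kept, and log2 intensity was averaged over the 14 or 15 spots of a probe and scaled as described above. The test took the 446 of 1035 probes that any 1 of the 5 groups had well above background on its 3 arrays. Differences were fitted in R 4.3.3 with limma 3.58.1 (lmFit, eBayes) over 15 arrays in 5 groups, with 10 residual degrees of freedom and Benjamini-Hochberg adjustment. The script was tested on simulated data. Named probes, by the rule, had the smallest unadjusted p among probes measured in both groups with groups that did not overlap, up to 10 a direction, plus up to 4 bounded probes a direction and the 3 brightest. The members, lists and tests were chosen with earlier results of these data known, and the planned gene lists could not be used without gene names. For normexp, the median spot signal was used in place of the mean signal. The number of arrays limits the precision. Same-numbered AgNO3 200 and 100 arrays had correlations of −0.41 to 0.06 in their deviations, none above 0.1. No pairing by number was thus seen, though deviations from means of 3 arrays cannot exclude one.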

Additional observations from a re-analysis of the deposited data

How the results depend on the processing

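Of 38 alternatives for AgNO3 200 minus AgNO3 100, 34 gave 0 probes past the threshold, as here; the adjusted results with other counts were 4 in the authors' deposited table (0 higher), 32 within slide 1, 163 with array weights (50 higher, where the estimation stopped before converging), and 0 to 22 when single arrays were left out, the 22 being without AgNO3 100 replicate 3. With the replicate number as a block 0 passed and 81 had an unadjusted p below 0.05. No pairing by number was seen in the deviations or given by the labels. The median difference over the 432 probes was −0.61 with spike-in scaling and −0.54 in the authors' deposited table, against −0.07 here. For Ag-NPs 200 minus Ag-NPs 100, leaving out single arrays gave 0 to 7 probes, and for the interaction 0 to 3, the highest each time without Ag-NPs 200 replicate 1. AgNO3 100 minus control had 13 probes scaled to the 75th percentile of all spots (11 higher) and 12 with the replicate block (8 higher), against 2 here (0 higher). AgNO3 200 minus control had 48 (35 higher) and 50 (33 higher) under these settings and 24 (12 higher) with slide as a block, against 36 (19 higher). Among 902 values of the 24 named probes, 852 kept their direction and side of the threshold, 46 came past it and 4 reversed. The 902 include the fits within single slides. The 852 include values near 0, such as 2e-05 for P5_D12_T7_1330274 in the authors' deposited table. The 4 that reversed were all in that table: Ealb_Met_P10_C8_T7_2175073 (−0.043), Contig7 (−0.029), Contig70 (−0.023) and Ealb_Met_P7_H6_SP6_2090643 (−0.013). The difference in detected probes was −184 to −70.8 when single arrays were left out, and that in array brightness −15.8 to 1.50, the last without AgNO3 100 replicate 2. Leaving out slide 3, chosen after seeing the data, gave 0 probes. The cause of these changes was not tested. Low signal over background limits the 183 probes that entered only through AgNO3 100.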
